A study of Mus musculus with 6 samples.

Results

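The cytosolic ribosomal protein genes, which encode the protein components of the cytoplasmic ribosome, were examined in RNA from cultured mouse microglia, the resident macrophages of the brain. Members were the rows of the raw count table whose symbol is Rpl or Rps followed by a number and at most a short suffix, together with Rpsa, Rplp0, Rplp1 and Rplp2. Pseudogene symbols ending in -ps, the Rps6k kinases and Rps19bp1 were left out. The rule used symbols only and matched 86 of 41079 genes, 33 of the small (40S) subunit and 53 of the large (60S) subunit. In the 3 cultures under optimized conditions compared with the 3 control cultures, edgeR called 0 of the 83 members with enough counts for a test at an adjusted p-value under 0.05, while it called 29.8% of all genes tested. DESeq2 and limma each called 1 member lower. By edgeR, 71 members had a log2 fold change between -0.20 and 0.20. The members differed more between the optimized libraries themselves than between the conditions, and 1 optimized library was low and another high in nearly all of them.

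All 6 libraries came from brain microglia of C57Bl/6N mice aged 1 to 3 days, which had been expanded in flasks with L-929 conditioned medium and detached by shaking. Control cultures received serum-free DMEM/F12. Per the labels, optimized cultures were stimulated with 100 ng/mL each of human TGFbeta, human IL34 and CX3CL1, and per the study's methods they also received cholesterol and insulin-transferrin-selenium on collagen IV, so that the agents cannot be told apart here. The paper describes the 3 samples of each condition as biological replicates. The flasks pooled cells of several newborn animals, and no label ties a replicate number to a litter or day. The p-values therefore measure the spread between these samples, part of which may be technical. RNA was sequenced from all cells of a culture, and fewer cells of a type and less RNA per cell cannot be told apart in such data.

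Each cytoplasmic ribosome carries 1 copy of most ribosomal proteins, arranged around ribosomal RNA in a small subunit, which reads the messenger RNA, and a large subunit, which joins amino acids. The messenger RNAs for these proteins are short and abundant, and many begin with a terminal oligopyrimidine (TOP) tract, a C followed by a run of C and T, through which their translation responds to growth signals relayed by mTORC1 and LARP1. Because that control acts largely on translation, RNA levels need not follow it. A few ribosomal protein genes have paralogs, such as Rps27l beside Rps27. The products of some, but not necessarily all, of them can replace the parent protein in part of the ribosomes. Whether those described below do so in these cells was not measured.

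Most members have a pyrimidine run near their start, and 8 named members, among them a parent and its paralog, are shown to let its form be compared. In RefSeq promoter sequences of GRCm38.p6, which held 64 members, a run of at least 8 C or T beginning with C, on the coding strand and from 50 bases before to 50 after the annotated start, was found in 53 of 64 members (82.8%). Among all 27025 genes with a promoter sequence 32.0% held such a run, and among the genes tested here 32.5%. The following windows of 30 bases are written 5′ to 3′ on the coding strand, with the pyrimidine run in capitals.
Rps6: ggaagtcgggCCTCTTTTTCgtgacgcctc
Rpl27a: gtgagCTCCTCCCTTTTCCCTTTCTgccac
Rpl13a: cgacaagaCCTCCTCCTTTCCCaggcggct
Rpl11: cggaagtCTCCCTCTCTCTTCCTgttctcc
Rplp2: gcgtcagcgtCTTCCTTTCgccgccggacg
Rpl22: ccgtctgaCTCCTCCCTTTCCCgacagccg
Rpl22l1: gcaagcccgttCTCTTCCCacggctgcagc
Rps27l: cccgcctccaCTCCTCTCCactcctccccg

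The window of Rps6 lies on the minus strand at chr4:86857349-86857378, that of Rpl27a on the plus strand at chr7:109519186-109519215 and that of Rpl13a on the minus strand at chr7:45128722-45128751. Those of Rpl11 (minus strand) and Rplp2 (plus strand) lie at chr4:136053357-136053386 and chr7:141447637-141447666. Rpl22, its paralog Rpl22l1 and Rps27l are all on the plus strand, at chr4:152325679-152325708, chr3:28805500-28805529 and chr9:66946054-66946083. Counted from the annotated start, the runs begin at position -1 in Rps6, -4 in Rpl27a and Rplp2, 3 in Rpl13a, 4 in Rpl22l1, 15 in Rpl11, -22 in Rps27l and -39 in Rpl22. The last 2 therefore lie before the annotated start, and a match is a description of these letters only. Tested members with and without a run had median log2 fold changes of 0.04 (51 members) and 0.03 (10 members). The motif CCGGAAGT of ETS-family factors was searched on both strands over 300 bases of promoter. It was found in 12 of 64 members (18.8%), in 4.31% of all genes with a promoter sequence and in 8.70% of the tested genes with one. Its reverse form ACTTCCGG can overlap a pyrimidine run.

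Count totals ranged from 20628148 to 27261839. Across all genes, 14618 had enough counts for the test, and edgeR's quasi-likelihood test called 2142 higher and 2218 lower in optimized cultures. With library size alone as the scaling these counts were 1513 and 3168, and the median log2 fold change of all genes moved from 0.01 to -0.12. Summed microglia markers (10 genes) lay between 8775 and 9447 CPM (counts scaled to library size) in control and between 13070 and 16570 in optimized libraries. The 6 neuron markers summed to 4.91 to 7.11 CPM, with the means of Rbfox3, Snap25 and Syt1 below 1 and those of Map2, Stmn2 and Tubb3 not. The 6 astrocyte markers summed to 30.6 to 33.5 CPM in control and 21.4 to 25.0 in optimized libraries. The 6 oligodendrocyte markers summed to 196 to 244 CPM, and 0 of them had a mean below 1. The 6 fibroblast and mural markers were highest in optimized 3, at 149 CPM, against 28.9 to 46.5 in the others.

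The ribosomal protein messengers covered a wide range of levels per gene length. Mean FPKM, the fragments scaled for gene length and depth by the authors, was 217 for the median tested member, with quartiles of 94.7 and 297. The highest levels were those of Rpl10 (661 FPKM), a late-joining large subunit protein, Rplp1 (540 FPKM) of the stalk and Rps2 (525 FPKM) of the small subunit. The lowest among those tested were those of Rpl39l (1.26 FPKM), the paralog of Rpl39 best known from male germ cells, Rpl6l (8.96 FPKM) and Rps27l (12.9 FPKM). Rpl6l and Rpl32l are annotated as processed pseudogenes in GENCODE M39, while the other 84 members are annotated as protein coding. Rpl10l had 0 counts in all 6 libraries, Rpl3l had 1 count, in optimized 1, and Rpl32l was counted 2, 0 and 0 times in control 1 to 3 and 0, 3 and 1 times in optimized 1 to 3. These 3 members were not tested.

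As a share of all counts, the members made up 1.60%, 1.74% and 1.83% in the control libraries, 1.72% ± 0.113 (SD, n = 3). In optimized libraries they made up 1.32%, 1.91% and 1.69%, or 1.64% ± 0.299 (SD, n = 3). The lowest and the highest of the 6 shares were both optimized libraries, and the control shares all lay between them. Counts on mitochondrially encoded (mt-) genes made up 0.0496% in optimized 1 and 0.0274% to 0.0341% in the other libraries. Ctsd, a lysosomal protease, alone took 5.04%, 7.11% and 6.05% of the counts in optimized 1 to 3 and 2.06% to 2.37% in control libraries. The part of either in the shares was not tested. The balance of the subunits varied little. The ratio of small to large subunit counts was 0.702 ± 0.0089 in control and 0.696 ± 0.0078 in optimized libraries (SD, n = 3 each).

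Among the 83 members tested, edgeR called 0 higher and 0 lower, while it called 29.8% of all genes tested. DESeq2 called 1 member, Rps27l, lower (31.0% of all genes called), and limma on log2(FPKM + 1) called 1, Rpl7l1, lower (16.4% of all genes called). At an unadjusted p-value under 0.05, edgeR gave 3 members, Rpl39l, Rps27l and Rpl7l1, all lower and all paralogs, beside 39.4% of all genes. The median log2 fold change was 0.04 over the members and 0.01 over all genes tested. Log2 fold changes were positive in 56 members and negative in 27, from -0.92 in Rpl39l to 0.36 in Rpl21. The signs depended on the scaling and the libraries, since 14 of 83 were positive with library size alone, 14 of 85 with limma on log2(FPKM + 1) and 28 of 83 without control 1. Their median size was 0.09, against 0.26 over all genes.

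**Figure D1:**
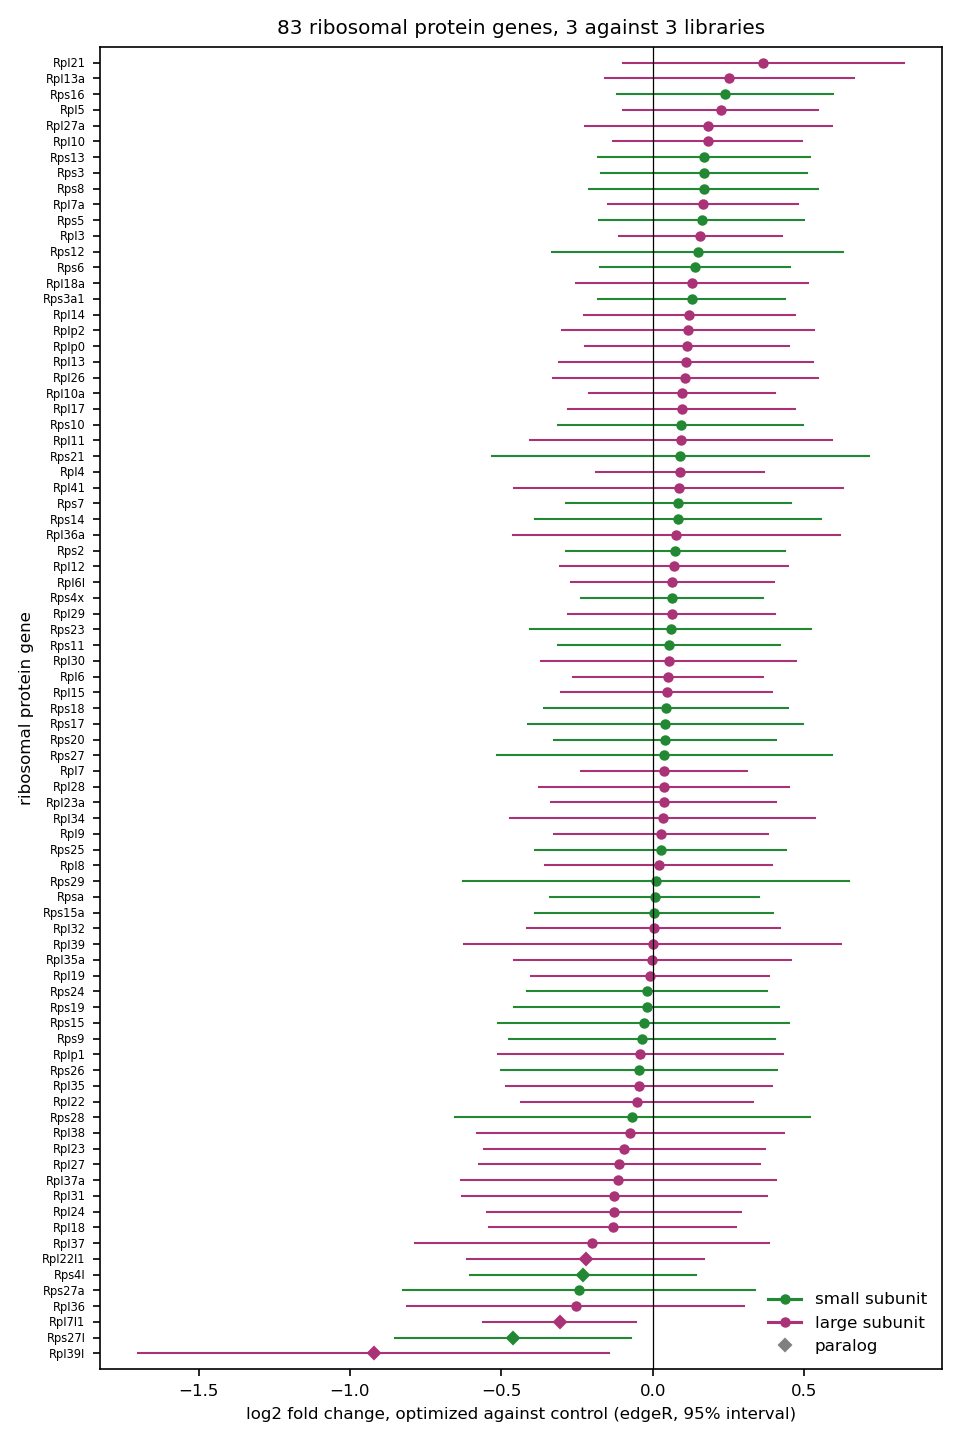
Log2 fold change (optimized against control, edgeR) with its 95% interval for each of the 83 ribosomal protein genes tested, sorted; colour marks the subunit and diamonds mark the paralogs. The intervals of Rpl39l, Rps27l and Rpl7l1 lie below 0, and those of the other 80 members include 0.

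A p-value above the threshold does not show that a gene did not change. The edgeR intervals, which include the spread between libraries only in part, give roughly what these libraries could detect. The 95% interval of the log2 fold change lay within -1 and 1 for 82 of 83 members, Rpl39l being the exception, and within -0.50 and 0.50 for 41. Its median width to either side was 0.40. The CPM values of the groups did not overlap in 2 members, Rpl39l and Rpl7l1, both lower in optimized cultures, whereas the groups did not overlap in 43.9% of all genes tested.

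Over the 33 small subunit genes the median of the log2 fold changes was 0.04. Rps16, a structural protein of the small subunit, had the highest, with 138, 148 and 163 CPM in control and 133, 219 and 177 CPM in optimized libraries. Optimized 1 was below every control library while the other two were above, and the log2 fold change was 0.24 ± 0.16 (SE), with an adjusted p-value of 0.31 by edgeR. Rps6, the substrate of the S6 kinases, had 361, 397 and 426 CPM in control and 342, 507 and 456 CPM in optimized libraries. It followed the same order of libraries as Rps16, with a log2 fold change of 0.14 ± 0.14 (edgeR adjusted p = 0.51).

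Rps19, the first gene linked to Diamond-Blackfan anaemia, had 172, 199 and 182 CPM in control and 123, 237 and 186 CPM in optimized libraries. The groups overlapped, with a log2 fold change of -0.02 (95% interval -0.46 to 0.42). Rpsa, which also is known as the laminin receptor, had 508, 538 and 626 CPM in control and 430, 659 and 590 CPM in optimized libraries. Again optimized 1 was lowest and optimized 2 highest of all 6, and the log2 fold change was 0.01 (95% interval -0.34 to 0.35). Rps2 had a log2 fold change of 0.07 ± 0.16 (SE).

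Rps27a, which is made as a fusion with ubiquitin, departed from the order of libraries seen in the others. It had 192, 258 and 160 CPM in control and 136, 253 and 125 CPM in optimized libraries. Control 2 and optimized 2 were both high and optimized 3 was lowest, and the log2 fold change was -0.24 ± 0.26 (edgeR adjusted p = 0.54). Optimized 3 was the lowest of the optimized libraries in 1 member only, Rps27a.

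Over the 50 large subunit genes tested the median was also 0.04. Rpl21 had the largest positive value of all members, with 44.6, 48.0 and 65.3 CPM in control and 47.8, 86.5 and 69.2 CPM in optimized libraries. Optimized 2 and 3 were above every control library and optimized 1 was among them, with a log2 fold change of 0.36 ± 0.21 (SE) and an edgeR adjusted p-value of 0.23. Rpl13a, also a component of an interferon-induced translational silencing complex, had 335, 360 and 411 CPM in control and 307, 549 and 462 CPM in optimized libraries. Optimized 1 was below and the other optimized libraries above the controls, and the log2 fold change was 0.25 ± 0.18 (edgeR adjusted p = 0.35).

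Rpl27a and Rpl10 had log2 fold changes of 0.18 ± 0.18 and 0.18 ± 0.14 (SE). Rpl22, whose loss is known to impair T cell development, had 66.1, 66.0 and 84.0 CPM in control and 50.9, 83.1 and 74.6 CPM in optimized libraries. The groups overlapped, with a log2 fold change of -0.05 (95% interval -0.44 to 0.33). Rpl36, a structural large subunit protein, had 43.8, 46.5 and 56.6 CPM in control and 24.9, 58.5 and 39.7 CPM in optimized libraries. Optimized 1 was lowest and optimized 2 highest of all 6, and the log2 fold change was -0.25 ± 0.25 (edgeR adjusted p = 0.50). Its exons share bases with Lonp1 on the opposite strand, a gene with 1.36 times the counts of Rpl36 here.

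Rpl5 and Rpl11 bind 5S ribosomal RNA and, when they are free, the p53 regulator MDM2. Rpl5 had 284, 329 and 364 CPM in control and 305, 445 and 391 CPM in optimized libraries. Optimized 1 lay among the controls and the others above them, with a log2 fold change of 0.22 ± 0.14 (edgeR adjusted p = 0.29). Rpl11 had 195, 222 and 301 CPM in control and 171, 323 and 270 CPM in optimized libraries, a log2 fold change of 0.09 ± 0.22 (SE) with overlapping groups.

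Rplp0, Rplp1 and Rplp2 form the stalk of the large subunit, which recruits elongation factors. Rplp0 had 582, 623 and 707 CPM in control and 535, 815 and 718 CPM in optimized libraries. Its log2 fold change was 0.11 (95% interval -0.22 to 0.45), that of Rplp1 -0.04 (-0.51 to 0.43) and that of Rplp2 0.12 (-0.30 to 0.53). In all 3 genes optimized 1 was the lowest and optimized 2 the highest of the 6 libraries.

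The paralogs had lower values in optimized cultures. All 5 tested (Rps27l, Rpl7l1, Rpl39l, Rpl22l1 and Rps4l) had negative log2 fold changes, from -0.92 to -0.22, and 56 of the other 78 members had positive ones with the TMM scaling, although with library size alone 14 of all 83 were positive. The edgeR adjusted p-values were between 0.068 and 0.39, and none passed the threshold. Without the paralogs the smallest adjusted p-value of a member was 0.23.

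Rps27l, a target of p53, had 37.0, 43.9 and 45.5 CPM in control and 22.3, 38.2 and 31.2 CPM in optimized libraries. The groups overlapped only in that optimized 2 exceeded control 1, and the log2 fold change was -0.46 ± 0.17 (edgeR adjusted p = 0.075). Rpl7l1, a relative of Rpl7, had 84.9, 89.0 and 96.1 CPM in control and 60.8, 79.7 and 77.6 CPM in optimized libraries. Every optimized library was below every control library, with a log2 fold change of -0.31 ± 0.11 (edgeR adjusted p = 0.068).

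Rpl39l had 1.05, 1.79 and 1.50 CPM in control and 0.52, 0.89 and 0.87 CPM in optimized libraries. The groups did not overlap, but the gene was low, and the log2 fold change of -0.92 had a 95% interval from -1.70 to -0.14 (edgeR adjusted p = 0.074). Rpl22l1 and Rps4l, a copy related to Rps4x, had overlapping groups and log2 fold changes of -0.22 ± 0.18 and -0.23 ± 0.17. Rpl36al, the paralog of Rpl36a whose symbol falls outside the rule, had a log2 fold change of -0.15 ± 0.25 (SE). Adjusted p-values over the alternatives ranged from 0.0029 to 0.21 for Rps27l, from 0.0062 to 0.30 for Rpl7l1 and from 0.022 to 0.34 for Rpl39l, and the direction was the same in each.

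The ratio of a paralog to its parent gene within a library does not depend on the scaling between libraries. It may still depend on gene length, by which the libraries also differed (below). Relative to the median tested member, the length taken from the FPKM values was 3.19 for Rps27l and 0.67 for Rps27. It was 3.02 for Rpl7l1 and 1.08 for Rpl7, and 1.00 for Rpl39l and 0.48 for Rpl39. The part of length in the ratios was not tested. The counts of Rps27l relative to Rps27 were 1.17, 1.20 and 0.935 in control and 0.829, 0.677 and 0.852 in optimized libraries. Those of Rpl7l1 relative to Rpl7 were 0.256, 0.240 and 0.261 in control and 0.201, 0.190 and 0.206 in optimized libraries. Those of Rpl39l relative to Rpl39 were 0.0368, 0.0476 and 0.0363 in control and 0.0253, 0.0171 and 0.0252 in optimized libraries. In these 3 pairs every ratio of the optimized libraries was below every control ratio, and the two-sided exact permutation test gave p = 0.10, the smallest value that 3 against 3 libraries allow (0.17 adjusted over 5 pairs). The mean ratios in optimized cultures were 0.714, 0.789 and 0.560 of those in control. The ratios of Rpl22l1 to Rpl22 (exact p = 0.50) and of Rps4l to Rps4x (exact p = 0.20) overlapped between the groups.

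**Figure D2:**
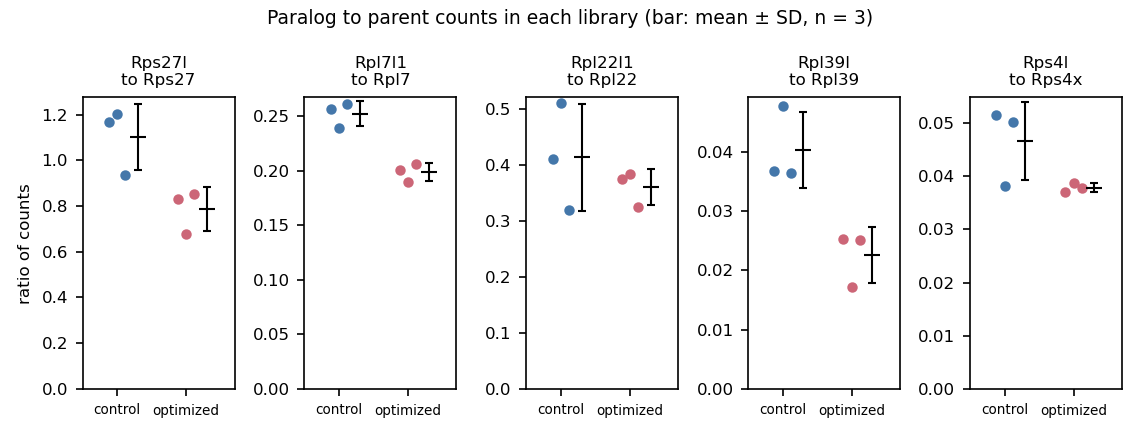
Ratio of the counts of each paralog to those of its parent gene, 1 point per library (linear axes from 0), with the mean ± SD of 3 libraries beside them. In Rps27l, Rpl7l1 and Rpl39l all optimized libraries lie below all control libraries, and in Rpl22l1 and Rps4l the groups overlap.

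The members moved together from library to library. As log2 CPM relative to each gene's mean over the 6 libraries, their medians were -0.14, -0.04 and 0.15 in control 1 to 3 and -0.43, 0.39 and 0.08 in optimized 1 to 3, while the medians of all genes tested were between 0.00 and 0.01 in size. Optimized 1 was the lowest of its group in 82 of 83 members and optimized 2 the highest in 82, beside 43.1% and 36.1% of all genes. In the control group, control 1 was lowest in 73 members and control 3 highest in 75, beside 35.7% and 34.5% of all genes. Against the 3 control libraries, optimized 1 was below all of them in 80 members, optimized 2 was above all of them in 76, and optimized 3 lay within their range in 50. The matching shares of all genes were not counted for these last positions.

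**Figure D3:**
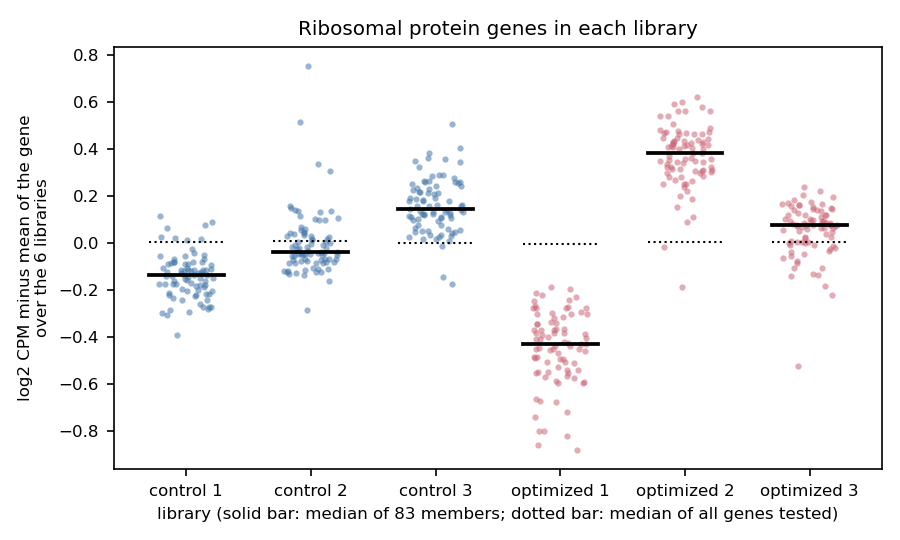
Log2 CPM of each of the 83 ribosomal protein genes minus that gene's mean over the 6 libraries, by library, with the median of the members as a solid bar and that of all genes tested as a dotted bar. Optimized 1 has its median at -0.43 and optimized 2 at 0.39, and the control libraries lie between them.

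The highest over the lowest library of a group was 1.74-fold in the median member among the optimized libraries, up to 2.66-fold in Rps21, and 1.23-fold among the controls. The median SD of log2 CPM within the optimized group was 0.40 for members and 0.19 for all genes, and within the control group 0.16 and 0.12. The SE of the fold changes given above includes this spread only in part. The edgeR fit uses an estimate of spread that is common to both groups and drawn toward that of all genes. The intervals may therefore be too narrow for members that varied most. Rps21, for example, had an SD of 0.73 in optimized and 0.18 in control libraries, and an SE of 0.28.

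The call depended on the library left out. Without optimized 1, edgeR called 22 members higher and 0 lower (17.4% and 17.7% of all genes), and the median of the members was 0.23. Of the 22, 9 belong to the small and 13 to the large subunit, with log2 fold changes from 0.24 to 0.56, among them Rpl21 at 0.56 ± 0.14 (adjusted p = 0.0050), Rpl13a at 0.46 ± 0.10 (adjusted p = 0.0025) and Rps16 at 0.41 ± 0.10 (adjusted p = 0.0045). Without optimized 2, edgeR called 0 higher and 5 lower (13.9% and 15.3% of all genes), and the median was -0.17. The 5 were Rps27l, Rps27a, Rpl36, Rpl22l1 and Rpl7l1, from -0.67 to -0.39. Without both libraries, which leaves 1 optimized library that is assumed to vary as the controls do, edgeR called 2 higher (Rpl13a and Rpl21) and 2 lower (Rps27a and Rps27l), beside 13.2% and 13.4% of all genes. Leaving out any of the other 4 libraries gave 0 called members and medians between -0.02 and 0.11. In those fits 3249 to 3489 of 14932 to 15039 genes were called, against 4360 of 14618 with all 6 libraries. With all 6 libraries and library size alone as the scaling, edgeR called 0 higher and 3 lower (10.4% and 21.7% of all genes), which were Rpl39l, Rps27l and Rpl7l1. When counts were scaled to the summed counts of the members, it called 0 and 0 members (5.94% and 6.23% of all genes).

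**Figure D4:**
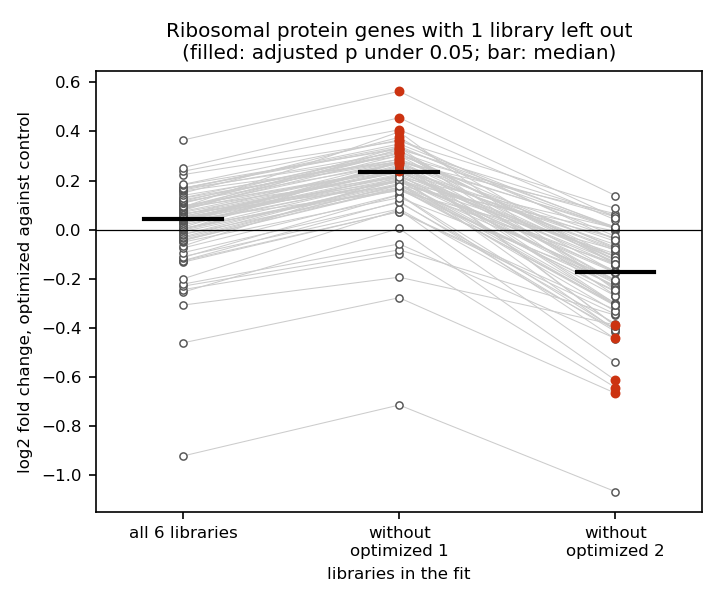
Log2 fold change of the 83 ribosomal protein genes with all 6 libraries, without optimized 1 and without optimized 2 (edgeR; lines join a gene, filled points have an adjusted p-value under 0.05, bars are medians). The median is 0.04, 0.23 and -0.17, and the filled points number 0, 22 and 5.

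The libraries that stood apart in the ribosomal protein genes also differed by gene length, and 62 of the 83 members are in the shortest eighth of the genes tested. In optimized 1 the shortest eighth of genes had a median of -0.20 relative to the gene means and the longest eighth 0.25, and in optimized 2 the values were 0.17 and -0.11. Without the members the shortest eighth had medians of -0.18 and 0.16. After a smooth length trend was removed from each library, the members still had medians of -0.26 in optimized 1 and 0.26 in optimized 2, and their median SD within the optimized group was 0.27, against 0.15 for all genes. With this trend removed, edgeR called 0 members higher and 2 lower (16.3% and 19.4% of all genes), Rps27l at -0.45 (adjusted p = 0.036) and Rpl7l1 at -0.29 (adjusted p = 0.021).

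**Figure D5:**
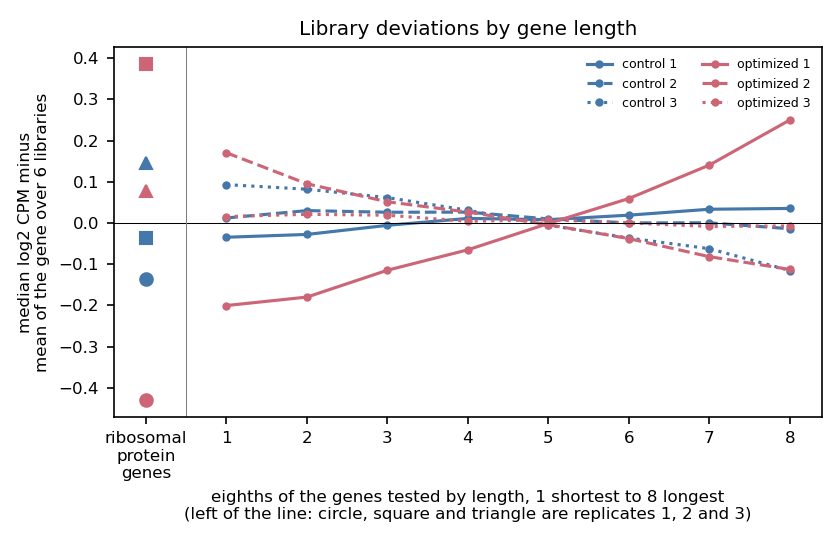
Median log2 CPM relative to the gene mean over the 6 libraries, for the ribosomal protein genes (left) and for eighths of the genes tested from the shortest (1) to the longest (8), by library. Optimized 1 rises from -0.20 to 0.25 along the eighths, optimized 2 falls from 0.17 to -0.11, and the ribosomal protein genes lie beyond the shortest eighth in both.

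The members lie on 19 chromosomes of GRCm39, with 14 of them on chromosome 7. According to GENCODE M39, 30 members hold 59 small nucleolar RNA genes within their span. The median log2 fold change was 0.11 in those 30 and 0.02 in the 53 tested members without such a gene. Ribosomal protein genes have left many processed copies in the genome. The coding sequence of 72 members matched at least 1 further place in GRCm39 at 95% identity over 90% of its length, with 530 places in all, a median of 4 per member and 55 for Rpl21. Reads of these genes could be shared with such copies, and how the counting treated them is not given in the sources used here, so that Rpl21 and members like it are uncertain. Rps27l, Rpl39l and Rps4l had no such copy and Rpl7l1 had 1. Of 23 rows with a -ps symbol of a ribosomal protein gene, 10 were tested and 0 were called by edgeR. Exon bases were shared with another listed gene in 49 members, and neither the strand setting nor the handling of shared bases is given in the sources used here. In Rpl13a these are Mir5121 and 2 small nucleolar RNA genes, listed with 0.603 times the counts of Rpl13a in all.

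Genes that act on or beside the ribosome were described by the same fit, with the percentages of all genes called being 14.7% higher and 15.2% lower. Of 78 mitochondrial ribosomal protein genes, which serve the separate ribosome of mitochondria, 1 was called higher and 4 lower, and the median was -0.10 on the log2 scale. Mrpl19 rose by 0.43 ± 0.11 on the log2 scale (edgeR adjusted p = 0.017), and Mrpl27 fell by 0.58 ± 0.15 (edgeR adjusted p = 0.016). The number higher was 0 without control 1 or optimized 3 and 2 without optimized 1. The number lower was 0 without control 2, 1 without control 3, 2 without optimized 3 and 8 without optimized 2. In the fits without a control library or without optimized 3, 1603 to 1702 of all genes were higher and 1646 to 1787 lower, of 14932 to 15039 tested. The shares of all genes higher and lower were 17.4% and 17.7% without optimized 1, and 13.9% and 15.3% without optimized 2. With library size alone 0 were higher and 18 lower, beside 10.4% and 21.7% of all genes. With limma on FPKM 0 were higher and 11 to 18 lower, beside 5.44% to 10.2% and 11.0% to 25.6% of all genes. Of 56 ribosome biogenesis genes, 1 was called higher and 5 lower, with a median of -0.12. Tcof1, which promotes transcription of ribosomal DNA, had 94.2, 91.0 and 92.8 CPM in control and 64.8, 58.2 and 63.2 CPM in optimized libraries. It fell by 0.58 ± 0.08 on the log2 scale (edgeR adjusted p = 0.00042), while Polr1e, a subunit of RNA polymerase I, rose by 0.64 ± 0.16 (edgeR adjusted p = 0.013). The number of biogenesis genes lower was 3 without any 1 of the 3 control libraries, and the number higher was 0 or 2 in all but 1 of the fits without 1 library, that without control 3. With library size alone 17 biogenesis genes were lower, and with limma on FPKM 12 to 19, beside the percentages of all genes given for these settings above.

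Of 22 elongation factors and other TOP messengers, 0 were called higher and 1 lower (Nap1l1), with a median of 0.11. Without control 2 or without control 3 none of the 22 was called lower, beside 1646 of 14932 and 1705 of 14982 of all genes. Without optimized 1, 9 were called higher, beside 17.4% of all genes. Eef1a1, which delivers aminoacyl-tRNA to the ribosome, had a log2 fold change of 0.22 ± 0.13, and Eef2, which moves the ribosome along the messenger, had -0.09 ± 0.10. Fau, whose product is a ribosomal protein fused to a ubiquitin-like protein, had 0.14 ± 0.21. It had 241, 264 and 289 CPM in control and 189, 388 and 297 CPM in optimized libraries, lowest in optimized 1 and highest in optimized 2 like the members. Of 9 small nucleolar RNA host genes 0 were called by edgeR and 2 had an unadjusted p-value under 0.05, and Gas5 had a log2 fold change of -0.04 ± 0.10. DESeq2 called 1 of these 9 higher (15.3% of all genes), and edgeR without optimized 1 called 1 lower (17.7% of all genes).

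Of 27 growth regulators of translation, 26 were tested, 3 were called higher and 7 lower, and the range of log2 fold changes was from -1.22 to 1.13. Myc, which drives transcription of ribosomal genes, had 26.8, 26.1 and 28.1 CPM in control and 16.7, 17.0 and 19.5 CPM in optimized libraries. The groups were far apart, and it fell by 0.60 ± 0.10 on the log2 scale (edgeR adjusted p = 0.0013). Its partner Max fell by 0.73 ± 0.10 (edgeR adjusted p = 0.00033). The MYC antagonists moved in opposite directions, Mxi1 rising from 28.8 to 62.9 CPM in the mean (log2 fold change 1.13 ± 0.09, edgeR adjusted p = 6.8e-06) and Mxd1 falling from 15.2 to 6.54 CPM (-1.22 ± 0.12, edgeR adjusted p = 5.2e-05). Deptor, an inhibitor of mTOR, fell by 0.92 ± 0.17 (edgeR adjusted p = 0.0024), whereas Ddit4, which restrains mTORC1 in stress, rose by 0.86 ± 0.26 (edgeR adjusted p = 0.029). Larp1, which binds TOP messengers, fell by 0.29 ± 0.09 (edgeR adjusted p = 0.045). Mtor and Rps6kb1 had log2 fold changes of -0.06 ± 0.10 and -0.05 ± 0.11, and Eif4ebp1 of -0.41 ± 0.19 (edgeR adjusted p = 0.14). The remaining called genes of this list were Rptor, Mlst8 and Eef2k. Rptor fell by 0.36 ± 0.12 (edgeR adjusted p = 0.049) and Mlst8 by 0.34 ± 0.11 (edgeR adjusted p = 0.040), while Eef2k rose by 0.34 ± 0.10 (edgeR adjusted p = 0.023). The number called lower in this list was 4 without any 1 of the control libraries and without optimized 3, and the number called higher was 1 without control 1, without control 3 and without optimized 2. The numbers of all genes called in these fits are those given above beside the mitochondrial genes.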

How the data were processed

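RNA of 3 control and 3 optimized microglia cultures was analysed. Per the labels, the authors processed reads with HISAT2 and featureCounts on mm39; versions, annotation, strand and multi-mapping settings are not given in the sources used here. They deposited raw counts per gene, without normalization, and FPKM values. Groups and replicate numbers came from the labels.

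Counts were tested in R 4.3.3 with edgeR 4.0.16 (filterByExpr, TMM, glmQLFit and glmQLFTest without further terms), with Benjamini-Hochberg adjustment over all genes tested and a threshold of 0.05. CPM values use TMM-scaled library sizes, and log2 CPM a prior count of 2. The SE was the log2 fold change divided by the square root of F. Alternatives were DESeq2 1.42.0, limma 3.58.1 on log2(FPKM + 1) or log2(FPKM + 0.1), other scalings and filters, a replicate block, a length trend fitted as a spline with 5 degrees of freedom, and leaving out libraries. Steps were tested on simulated data.

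The members and gene lists were chosen with earlier results of these data known, and lists are described by counts and medians only. Named members are those of the stalk, paralog, ubiquitin fusion and MDM2-binding lists, 6 chosen for known roles, the 5 highest and 5 lowest by fold change and the 3 highest and 3 lowest by FPKM. Of each related list, the 3 highest and 3 lowest genes and some fixed ones could be named, and not all are. Outside the rule, Rps21, Lonp1, Mir5121, Ctsd, Rptor and Mlst8 were picked with their values in view. Gene copies were searched with blastn 2.17.0 and promoters were those of RefSeq (GRCm38.p6). Protein sequences were not used here.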

Additional observations from a re-analysis of the deposited data

How the results depend on the processing

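There were 21 alternative settings, 2 of them chosen after seeing the data (scaling to the members' own total, and leaving out optimized 1 and 2 together). The sign of the members' median log2 fold change varied, and no named member reversed as a called value. The median stayed within the pooled SD of the library medians, 0.31. That SD comes mainly from the optimized libraries (0.41, against 0.14 in control), so it cannot judge the fits that leave out optimized 1 or 2. Counts of calls moved as follows, beside 0 higher and 0 lower members, 1 and 4 mitochondrial ribosomal protein genes, 1 and 5 biogenesis genes, 0 and 1 TOP messengers, 0 and 0 snoRNA host genes, and 3 and 7 growth regulators. Lower members numbered 1 with DESeq2 and with limma on log2(FPKM + 1) or log2(FPKM + 0.1), 2 with no low-count filter and with the length trend removed, and 3 with library size alone and with limma at a mean FPKM of at least 1. Of all genes, 15.7% were lower with DESeq2, 11.0% and 11.1% with limma on log2(FPKM + 1) and log2(FPKM + 0.1), 9.85% with no low-count filter, 19.4% with the length trend removed, 21.7% with library size alone and 25.6% with limma at a mean FPKM of at least 1. Scaling to library size alone also moved the median of the members to -0.10, and limma moved it to -0.13. Lower mitochondrial genes numbered 18, 13, 11 and 18 with library size alone, log2(FPKM + 0.1), log2(FPKM + 1) and limma at a mean FPKM of at least 1, with 0 higher in each, and lower biogenesis genes 17, 13, 12 and 19, with 0 higher in both limma fits on all genes. In the first 3 of these 1 growth regulator was higher, in all 4 1 host gene was lower, and with library size alone 2 TOP messengers were lower. With the length trend removed 2 mitochondrial genes were higher and 9 lower, 10 biogenesis genes lower, 1 host gene and 2 TOP messengers higher, and DESeq2 called 1 host gene higher. Scaling to the members' own total gave 0 and 1 mitochondrial genes, 0 and 0 biogenesis genes, 0 lower TOP messengers, and 1 and 2 growth regulators. Without optimized 1 and 2 together there were 2 higher and 2 lower members, 1 higher growth regulator, 1 lower host gene and 0 lower TOP messengers. The cause of these changes was not tested.

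When each library was left out in turn, members ranged from 0 to 22 higher and from 0 to 5 lower, mitochondrial genes from 0 to 2 and 0 to 8, biogenesis genes from 0 to 2 and 3 to 6, TOP messengers from 0 to 9 and 0 to 1, host genes from 0 to 0 and 0 to 1, and growth regulators from 1 to 3 and 4 to 7. Of all genes, 1603 to 2591 were higher and 1646 to 2643 lower in these fits, of 14916 to 15039 tested. The median of the members ranged from -0.17 to 0.23.

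Libraries with the same replicate number were not paired by the labels. The correlations of their deviations from the group means were 0.27, -0.01 and 0.18, and 3 of 6 libraries correlated best with their own number. With the replicate block, edgeR called 0 members higher and 3 lower (Rpl7l1, Rps27a and Rps27l; 16.4% and 17.3% of all genes), 9 mitochondrial and 9 biogenesis genes lower. With the replicate block and the length trend removed it called 4 members higher (Rpl5, Rpl13a, Rpl21 and Rps16) and 3 lower (17.4% and 21.0% of all genes), 2 mitochondrial genes higher and 12 lower, 10 biogenesis genes lower, and 1 host gene and 4 TOP messengers higher.

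With 3 libraries per group, the 95% interval of a member's log2 fold change reached 0.40 to either side in the median. Rpl39l, Rpl3l, Rpl10l and Rpl32l are limited by their counts.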
